A study of Homo sapiens with 12 samples.

Results

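Notch receptors, their ligands, the atypical ligand DNER, the DNA-binding factor RBPJ and the target genes HES1 and HEY1 were followed across control and regorafenib (Rego)-resistant SNU449 cells with and without Axl. The 10 genes NOTCH1, NOTCH2, NOTCH3, JAG1, JAG2, DLL1, DNER, RBPJ, HES1 and HEY1 were chosen by name, selected on earlier results of the same libraries, so that their values are given as a description and carry no test. Of the 10 names, 9 were among the 15601 genes of the table over all 12 libraries, and NOTCH3 was listed in none of the 8 tables. SNU449 is a human hepatocellular carcinoma (HCC) cell line, and SNU449-Axl- is a derivative in which the receptor tyrosine kinase Axl was ablated by CRISPR/Cas9. Whether that derivative is a single clone is not given in the sources used here. Each background was sequenced as naive control cells and as cells labelled with long-term Rego, a multikinase inhibitor, and whether the drug was present at harvest is not given in the sources used here. The resistant cells had been raised from 50% of the IC50 concentration in steps of 50% up to 2 times the IC50, and all 4 groups, SNU449 control, SNU449-Rego, SNU449-Axl- control and SNU449-Axl- Rego, were kept in RPMI with fetal bovine serum. The 3 libraries of a group are technical replicates of 1 cell population, so that every SD, standard error (SE) and p-value covers the spread between libraries and not between independently derived populations.

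In canonical Notch signaling, a ligand of the Jagged or Delta-like family on one cell binds a Notch receptor on its neighbor. The receptor is then cut by ADAM proteases and by the gamma-secretase complex, and its freed intracellular part enters the nucleus, where it joins RBPJ and Mastermind-like co-activators to switch on targets such as the HES and HEY repressors. In the liver, Notch is best known for directing hepatoblasts towards the bile duct fate, with JAG1 and NOTCH2 as the classic pair. DNER is a transmembrane protein with EGF-like repeats, known from neurons, that lacks the domain by which canonical ligands bind Notch.

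Libraries were compared on the deposited library values, which the authors back-transformed from variance-stabilized levels freed of the preparation effect and which are not read counts. A level is log2(value + 1) throughout, and a difference is between mean levels of groups of 3 libraries. Weak genes are compressed on this scale, since no value of the table lies below 12. AXL itself was listed at 715 to 941 in SNU449 control and 815 to 1271 in SNU449-Rego, against 33 to 53 in SNU449-Axl- control and 38 to 52 in SNU449-Axl- Rego, as the labels give the backgrounds. The depth of a library is unknown. Mean normalized counts summed to between 4.16e+06 and 4.92e+06 over the tables. In bulk libraries, fewer cells of a kind and less RNA per cell cannot be told apart.

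DNER and HES1 had the widest group differences among the listed genes, and both were high in SNU449-Rego and in SNU449-Axl- control and low in SNU449 control and in SNU449-Axl- Rego. JAG2 was higher in resistant than in control cells of both backgrounds, and HEY1 was lower in both. NOTCH2 was lowest in SNU449-Rego. NOTCH1, JAG1, RBPJ and DLL1 differed by at most 0.50 (log2) in any of the 4 comparisons. The plot of levels by library shows these patterns gene by gene.

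**Figure D1:**
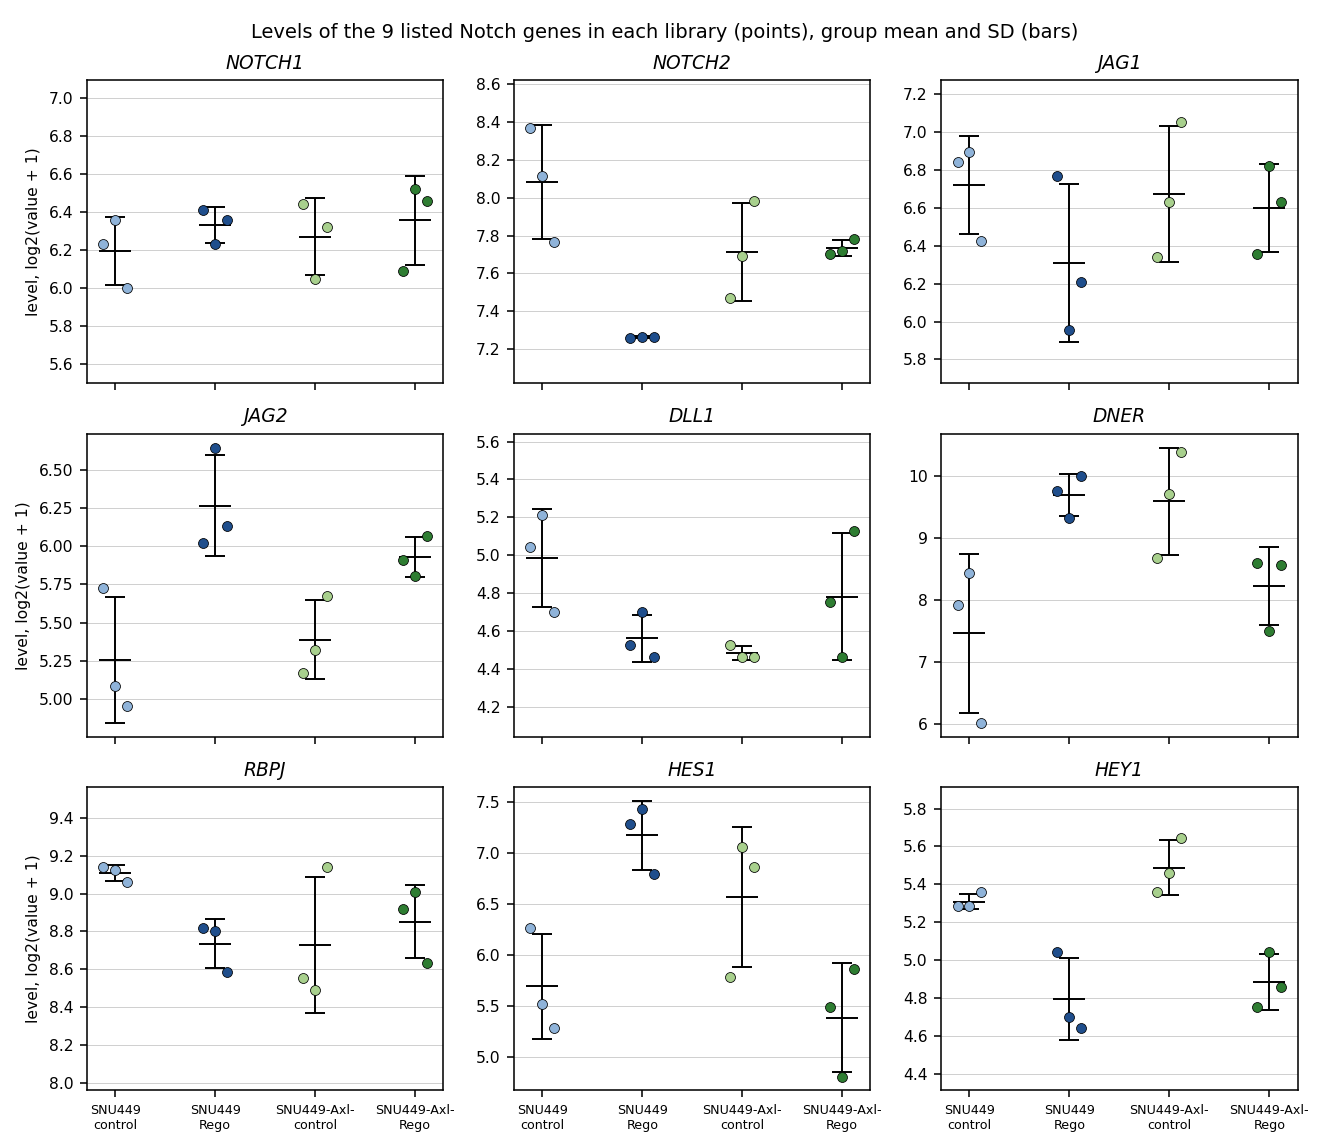
Level, log2(value + 1), of the 9 listed genes in each of the 12 libraries (points) by group, with the group mean and SD (bars, n = 3) and a separate scale for each gene. DNER spans 6.02 to 10.4 and HES1 4.81 to 7.43, whereas NOTCH1 stays between 6.0 and 6.52.

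Per group, the level in linear terms was solved from the mean normalized counts that the authors gave for each table, which have no SD. Since QuantSeq reads come from the end of each transcript, these counts are compared between genes without division by length. DNER was the most abundant of the 9 genes with a mean normalized count of 558 over all libraries, and 8.52% of all genes lay above it. RBPJ followed with 460, NOTCH2 with 196, JAG1 with 73.9, HES1 with 62.9, NOTCH1 with 51.9, JAG2 with 27.7, HEY1 with 8.13 and DLL1 with 1.97, against a median of 57.1 over all genes. Thus 1 canonical ligand, DLL1, was close to the lower end of what was listed, and it appeared in only 1 of the 6 pair tables, so that no group value could be solved for it. Values of a group had to fit 7 tables, and the largest misfit for a gene was between 0.313% and 1.51%.

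**Figure D2:**
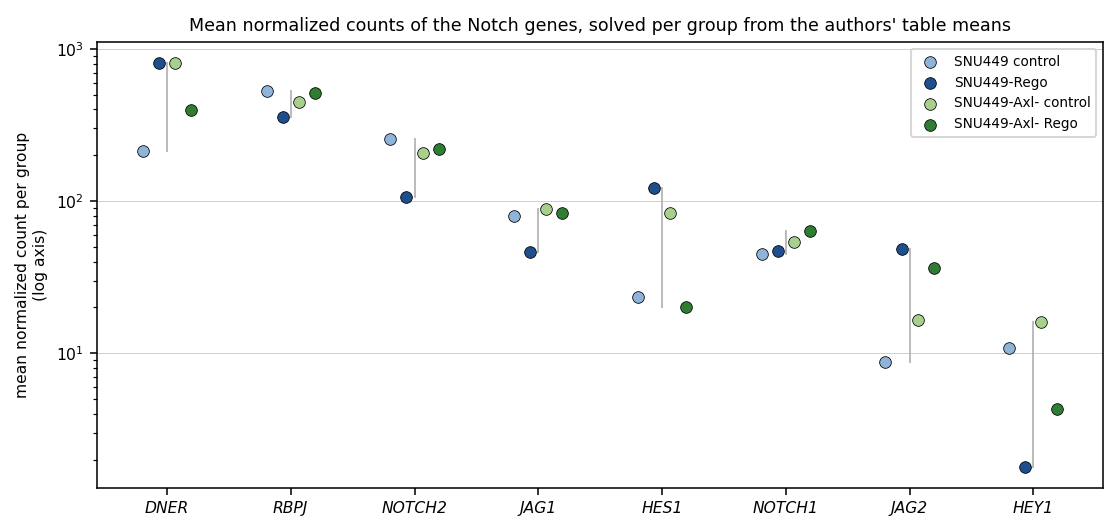
Mean normalized count per group (log axis), solved from the authors' table means, for the 8 genes that could be solved, ordered by their mean over all libraries. DNER is at 213 in SNU449 control and near 811 in both SNU449-Rego and SNU449-Axl- control, and HEY1 lies at 15.97 or less in every group.

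Among the receptors, NOTCH1 (chr9:136494433-136546048, minus strand, GRCh38) was nearly level. Its library values were 74, 81 and 63 in SNU449 control, 84, 74 and 81 in SNU449-Rego, 86, 65 and 79 in SNU449-Axl- control and 67, 91 and 87 in SNU449-Axl- Rego, so that all 4 groups overlapped. The range of its group means, 0.16 (log2), was wider than that of only 5.88% of all genes. NOTCH2 (chr1:119911553-120100779, minus strand), the main receptor of the bile duct program, was listed at 329, 276 and 217 in SNU449 control and at 152, 153 and 153 in SNU449-Rego, with no overlap. In SNU449-Axl- cells it was at 176, 206 and 252 in control and at 207, 210 and 219 in resistant cells, which overlapped. Its level was thus lower in SNU449-Rego by a difference of -0.82 (SE 0.200), while the difference in SNU449-Axl- was 0.02 (SE 0.200). The solved mean normalized counts of NOTCH2 were 255 in SNU449 control, 107 in SNU449-Rego, 208 in SNU449-Axl- control and 220 in SNU449-Axl- Rego. NOTCH2 shares near-identical sequence in part with the NOTCH2NL genes, of which NOTCH2NLC and NOTCH2NLR were listed and NOTCH2NLA and NOTCH2NLB were not. Whether reads from the transcript ends were split among these genes was not tested.

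Of the canonical ligands, JAG2 (chr14:105140982-105168824, minus strand) differed most. It was listed at 52, 33 and 30 in SNU449 control and at 64, 99 and 69 in SNU449-Rego. In SNU449-Axl- cells it was at 35, 39 and 50 in control and at 59, 55 and 66 in resistant cells. Resistant and control libraries did not overlap in either background, with differences of 1.01 (SE 0.237) in SNU449 and 0.54 (SE 0.237) in SNU449-Axl-. On the linear scale, JAG2 went from a mean normalized count of 8.80 to 48.8 in SNU449, a ratio of 5.54, and from 16.5 to 36.5 in SNU449-Axl-, a ratio of 2.21. On the level scale, the same differences were folds of 2.01 and 1.45. What part the compression of weak genes has in these smaller folds was not tested.

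JAG1 (chr20:10637684-10673999, minus strand), the classic partner of NOTCH2 in the liver, was listed at 114, 118 and 85 in SNU449 control and at 108, 61 and 73 in SNU449-Rego, which overlapped. It was at 80, 98 and 132 in SNU449-Axl- control and at 81, 112 and 98 in SNU449-Axl- Rego, again with overlap. Its differences were -0.41 (SE 0.247) and -0.07 (SE 0.247). DLL1 (chr6:170282206-170306565, minus strand) lay between 21 and 36 in all 12 libraries, near the lowest values of the table, and its highest library was in SNU449 control.

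DNER (chr2:229357629-229714555, minus strand) was listed at 243, 348 and 64 in SNU449 control and at 870, 639 and 1024 in SNU449-Rego. In SNU449-Axl- cells the order was the other way round, with 410, 839 and 1346 in control and 387, 180 and 380 in resistant cells. Resistant and control libraries did not overlap in either background, nor did the backgrounds overlap among control or among resistant cells, whereas SNU449-Rego overlapped with SNU449-Axl- control and SNU449 control with SNU449-Axl- Rego. The mean level was 7.47 ± 1.28 (SD, n = 3) in SNU449 control, 9.70 ± 0.345 in SNU449-Rego, 9.60 ± 0.862 in SNU449-Axl- control and 8.22 ± 0.628 in SNU449-Axl- Rego. DNER therefore was 2.23 (SE 0.489) higher in resistant SNU449 cells and 2.13 (SE 0.489) higher in SNU449-Axl- control, both against SNU449 control. It differed by -1.37 (SE 0.489) between resistant and control SNU449-Axl- cells and by -1.47 (SE 0.489) between SNU449-Axl- Rego and SNU449-Rego. The solved mean normalized counts of 213, 811, 812 and 397 gave ratios of 3.81 for resistance in SNU449 and 0.489 in SNU449-Axl-.

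The libraries of a group spread widely for DNER. Its pooled SD within groups, 0.850, was above that of 99.9% of all genes, and 1 SNU449 control library, replicate 3 with a value of 64, stood below all other libraries. Without it, the difference between SNU449-Rego and SNU449 control was 1.27 in place of 2.23, and that between SNU449-Axl- control and SNU449 control was 1.17 in place of 2.13. With any 1 of the 12 libraries left out, DNER kept the sign of all 4 differences. The correction for preparation, however, left libraries with one replicate number at nearly the same mean level. Omitting 1 library therefore does not free the others of its number from its value. Neither the lack of overlap nor the leave-one-out results here and below are independent checks.

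RBPJ (chr4:26163455-26435131, plus strand), through which every Notch receptor acts, was listed at 563, 557 and 534 in SNU449 control and at 450, 446 and 383 in SNU449-Rego, without overlap and with a difference of -0.37 (SE 0.202). In SNU449-Axl- it was at 375, 359 and 564 in control and at 482, 513 and 396 in resistant cells, with overlap and a difference of 0.12 (SE 0.202).

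HES1 (chr3:194136148-194138732, plus strand) encodes a basic helix-loop-helix repressor and is the best known direct target of Notch. It is shown with its promoter as the textbook example of such a gene, and TGGGAA stands for the core letters that RBPJ binds. Whether RBPJ binds either copy in these cells was not tested. The 250 bases before its RefSeq start (GRCh38.p14, plus strand, chr3:194135898-194136147) are given 5′ to 3′ with both copies of TGGGAA in capitals.
HES1 promoter: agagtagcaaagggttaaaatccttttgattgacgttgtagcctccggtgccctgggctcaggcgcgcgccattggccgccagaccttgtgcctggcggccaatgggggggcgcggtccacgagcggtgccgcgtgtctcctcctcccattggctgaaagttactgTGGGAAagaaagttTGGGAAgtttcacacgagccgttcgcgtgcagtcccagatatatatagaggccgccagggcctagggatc
The copies begin 84 and 70 bases before the start, and only 1 of them, the former, extends to the longer GTGGGAA. Searched on both strands as TGGGAA or TTCCCA, the motif occurred in 20.8% of 35116 RefSeq promoters over the same 250 bases before the start, and 2.90% held at least 2 copies. The longer GTGGGAA, searched likewise, occurred in 5.43%. Of the 7 Notch genes with an entry, HES1 and 1 of the 5 starts of RBPJ held TGGGAA. Entries for DLL1, DNER and HEY1 were not used here.

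HES1 was listed at 76, 45 and 38 in SNU449 control and at 155, 172 and 110 in SNU449-Rego, without overlap. In SNU449-Axl- cells it was at 54, 132 and 115 in control and at 44, 27 and 57 in resistant cells, where the lowest control library lay between the resistant ones. Its mean level was 5.69 ± 0.512 (SD, n = 3), 7.17 ± 0.335, 6.56 ± 0.686 and 5.39 ± 0.533 in the same order of groups. The difference between resistant and control cells was 1.48 (SE 0.336) in SNU449 and -1.18 (SE 0.336) in SNU449-Axl-. Between backgrounds, SNU449-Axl- control differed from SNU449 control by 0.87 (SE 0.336) and SNU449-Axl- Rego from SNU449-Rego by -1.79 (SE 0.336), the latter without overlap. On the linear scale, the mean normalized count of HES1 was 23.4 in SNU449 control, 122 in SNU449-Rego, 83.4 in SNU449-Axl- control and 20.1 in SNU449-Axl- Rego, so that it was 5.22 times higher in resistant SNU449 cells and had a ratio of 0.240 in resistant SNU449-Axl- cells.

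HEY1 (chr8:79762371-79767857, minus strand), a second Notch target of the same protein family, did not share the pattern of HES1. It was listed at 38, 38 and 40 in SNU449 control, at 32, 25 and 24 in SNU449-Rego, at 40, 43 and 49 in SNU449-Axl- control and at 26, 32 and 28 in SNU449-Axl- Rego. Resistant libraries were below the control libraries in both backgrounds, with differences of -0.51 (SE 0.182) and -0.60 (SE 0.182). Its solved mean normalized counts were 10.8 and 1.78 in SNU449 and 15.97 and 4.29 in SNU449-Axl-, near the lower end of what the tables list.

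Set against all genes, 4 of the 9 members passed an adjusted p of 0.05 for resistance in SNU449 (limma over all genes, Benjamini-Hochberg), namely DNER, HES1 and JAG2 upwards and NOTCH2 downwards, where 7.81% of all genes did. Library values of 6 members did not overlap there, against 27.9% of all genes. For resistance in SNU449-Axl-, 0 of 9 members passed with limma, against 4.35% of all genes, although 4 had an unadjusted p under 0.05 and 2, HES1 and HEY1, passed without the replicate block. Values of 3 members did not overlap in that comparison, against 29.1% of all genes. In the table of that pair alone, DNER and HES1 were among the 818 of 14287 genes that passed. In the fit over all 12 libraries, DNER alone passed for Axl loss in control cells, where 7.45% of all genes did. There, 2 members did not overlap, against 27.9%. HES1 alone passed for Axl loss in resistant cells, where 4.37% of all genes did, and 3 members did not overlap, against 28%. Because the members had been picked with such results in view, nothing is read from these counts.

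The calls in SNU449 rested on few libraries. When each of the 12 libraries was left out in turn, DNER stayed past the threshold in 11 cases, JAG2 in 9, HES1 in 8 and NOTCH2 in 7. DNER was lost without SNU449-Rego replicate 3, HES1 without SNU449 control replicate 2 or 3 or SNU449-Rego replicate 1 or 2, and JAG2 without SNU449 control replicate 2 or 3 or SNU449-Rego replicate 2. NOTCH2 was lost without SNU449 control replicate 1 or 2 or without any 1 of the SNU449-Rego libraries. For Axl loss in control cells, DNER was lost without SNU449-Axl- control replicate 2 or 3, and for Axl loss in resistant cells HES1 was lost without SNU449-Axl- Rego replicate 2.

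Whether the change with resistance differed between the backgrounds was asked with an interaction term, the difference in SNU449 minus that in SNU449-Axl-. It was 3.60 (SE 0.692) for DNER and 2.66 (SE 0.475) for HES1, the 2 members past the threshold, against 5.87% of all genes. Both kept that place when any 1 of the 12 libraries was left out, with values between 2.64 and 4.26 for DNER and between 2.27 and 3.18 for HES1. The interaction was -0.84 (SE 0.283) for NOTCH2, -0.72 (SE 0.278) for DLL1, -0.50 (SE 0.286) for RBPJ, 0.47 (SE 0.335) for JAG2, -0.34 (SE 0.349) for JAG1, 0.09 (SE 0.258) for HEY1 and 0.05 (SE 0.283) for NOTCH1.

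**Figure D3:**
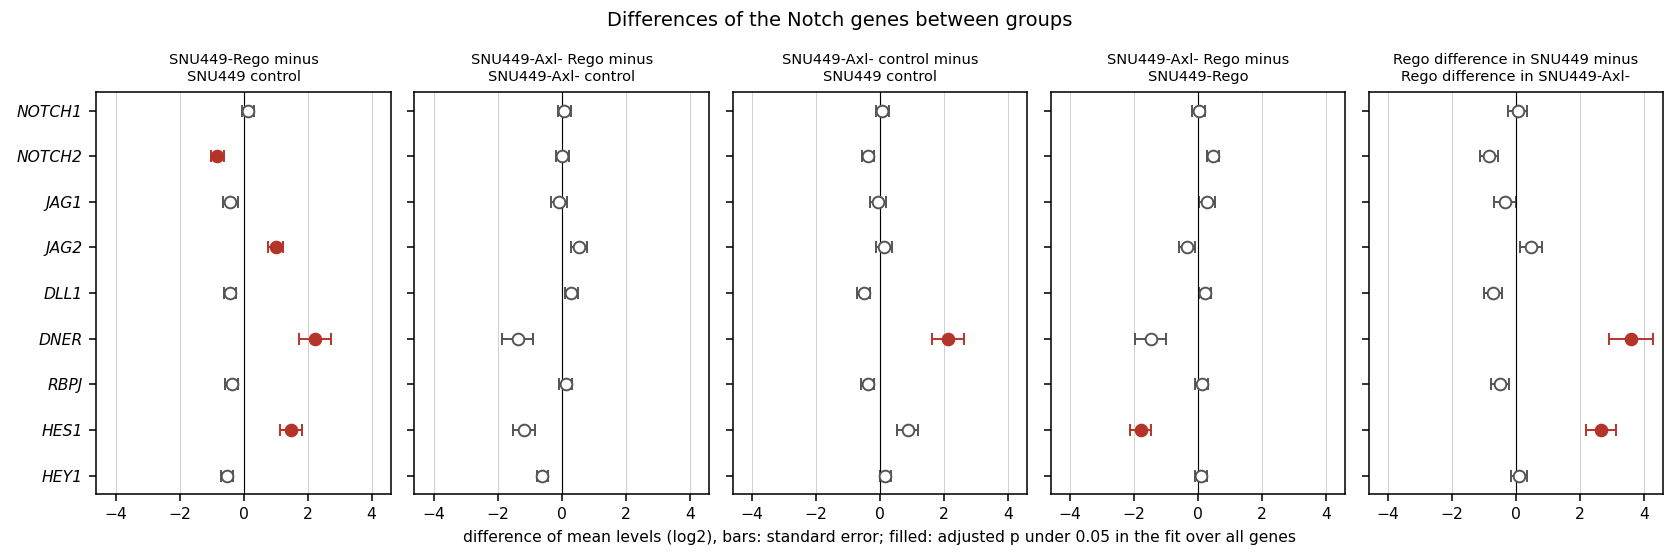
Difference of mean levels (log2, points) with its SE (bars) for the 9 genes in the 4 comparisons and for the interaction, filled where the adjusted p over all genes was under 0.05. DNER and HES1 lie to the right of 0 in SNU449, to the left in SNU449-Axl-, and at 3.60 and 2.66 in the interaction.

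The comparisons share groups, so that values of a gene in them are not independent. In the tables that set resistant cells of one background beside control cells of the other, SNU449-Rego exceeded SNU449-Axl- control by 0.10 for DNER, by 0.42 for HES1 and by 0.58 for JAG2, and only JAG2 did not overlap among these. SNU449-Axl- Rego exceeded SNU449 control by 0.56 for DNER and 0.45 for JAG2 and differed by -0.20 for HES1.

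Over the 12 libraries, DNER and HES1 moved together with a Pearson r of 0.78, and JAG2 and HEY1 moved oppositely with -0.75. HES1 and HEY1 had an r of -0.07 and NOTCH2 and JAG1 an r of 0.68. These are descriptions over libraries that share 4 cell populations. Among 1206 genes whose group means spanned at least 1 (log2), those most like DNER were TPM4, a tropomyosin (r = 0.95), OGFRL1 (0.94), FRMD4A (0.93), CBX2, a Polycomb protein (0.93), and COL1A1, a chain of type I collagen (0.91). Those most like JAG2 were CHST9 (0.93), the adrenergic receptor ADRA1B (0.92), the chemokine receptor CXCR4 (0.91) and TNFAIP2 (0.91).

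The genes around the members on their chromosomes were read in the same way, with up to 10 on each side whose mean normalized count was at least 30. The 20 neighbors of DNER had a median difference of -0.17 for resistance in SNU449, where 6 passed the threshold, against 7.81% of all genes. For Axl loss in control cells their median was 0.04, and 3 passed, against 7.45% of all genes. The neighbors of HES1 had medians of 0.08 for resistance in SNU449 and -0.08 in SNU449-Axl-, and those of JAG2 had 0.20 and 0.05. The neighbors of HEY1 had a median of 0.47 for Axl loss in resistant cells, where 7 of 20 passed the threshold, against 4.37% of all genes. HEY1 itself differed by 0.09.

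Beyond the members, 88 other genes were listed by role for the Notch pathway, and 73 of them were in the table. The list was likewise drawn up with earlier results of these data known. It counts JAGN1 as a ligand gene, though JAGN1 is not a Jagged gene, and JAGN1 did not pass in any of the 4 comparisons. In SNU449, 14 of the 73 passed between resistant and control cells (19.2%, against 7.81% of all genes), 8 upwards and 6 downwards. Their median difference was 0.09 over the 73, against -0.000102 for all genes. In SNU449-Axl-, 5 passed (6.85%, against 4.35%), 3 upwards and 2 downwards. Between the backgrounds, 7 passed in control cells (9.59%, against 7.45%) and 6 in resistant cells (8.22%, against 4.37%). The counts depended on single libraries, being between 5 and 14 in SNU449 and between 0 and 6 in SNU449-Axl- when 1 of the 12 was left out. No gene passed in SNU449-Axl- without SNU449-Axl- control replicate 2, SNU449-Axl- Rego replicate 2 or SNU449-Axl- Rego replicate 3.

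Of the 5 listed genes for ligand endocytosis, 2 passed in SNU449, EPN1 and EPN2, both upwards, against 7.81% of all genes. They encode epsins, which let the signal-sending cell pull on its bound ligand. EPN2 was listed at 261, 205 and 316 in SNU449 control and at 857, 938 and 809 in SNU449-Rego, and it rose by 1.75 (SE 0.234, adjusted p = 0.00011). It was at 612, 690 and 893 in SNU449-Axl- control, 1.49 above SNU449 control (SE 0.234, adjusted p = 0.000700), and at 1166, 1200 and 698 in SNU449-Axl- Rego. Both calls held in all 20 alternatives, and the mean normalized counts of EPN2 were 228, 773, 789 and 1099. EPN1 rose by 0.72 in SNU449-Rego, a call that held in 15 of 20 alternatives and was lost in the pair's own table (0.73) and without replicate 2 or 3 of SNU449 control (0.72 and 0.63) or of SNU449-Rego (0.65 and 0.70). It was lower by a difference of -0.91 (SE 0.179, adjusted p = 0.0065) in SNU449-Axl- Rego than in SNU449-Rego, which was lost when centred on the spike-in RNAs (-0.45, adjusted p = 0.11) and without SNU449-Rego replicate 2 (-0.83) or SNU449-Axl- Rego replicate 2 (-0.79). NEURL1B, a ubiquitin ligase for ligands, differed by -1.07 (SE 0.242, adjusted p = 0.0096) in SNU449-Axl- control against SNU449 control, a call that held in 15 of 20 alternatives.

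Of the 5 other genes listed as ligands, 3 passed in SNU449, DLK1, DLK2 and DLL3, all upwards, against 7.81% of all genes. DLK1, a non-canonical ligand lacking the receptor-binding domain, was listed at 31, 22 and 28 in SNU449 control and at 116, 90 and 44 in SNU449-Rego, which differed by 1.50 (SE 0.30, adjusted p = 0.0039). In both SNU449-Axl- groups it had the same values of 16, 22 and 28, near the lowest of the table, and the difference for Axl loss in resistant cells was -1.80 (SE 0.30, adjusted p = 0.0017). Since SNU449 control was at such low values as well, neither difference gives a size of change. DLK2 rose by 0.78 (adjusted p = 0.016) and DLL3 by 0.64 (adjusted p = 0.036) in SNU449-Rego, and these calls held in 15 and 10 of 20 alternatives.

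Receptors are decorated with sugars before they reach the surface. GXYLT2, which adds xylose to O-glucose on EGF repeats, fell from 94, 103 and 89 in SNU449 control to 36, 31 and 40 in SNU449-Rego, a difference of -1.40 (SE 0.197, adjusted p = 0.00019) that held in all 20 alternatives. In SNU449-Axl- it was at 56, 72 and 70 in control and at 76, 63 and 57 in resistant cells, which overlapped. POGLUT2, a protein O-glucosyltransferase, was at 190, 209 and 411 in SNU449 control and at 112, 93 and 106 in SNU449-Rego, and fell by 1.29 on the log2 scale (SE 0.322, adjusted p = 0.018). This call was lost without SNU449 control replicate 3, where the difference was -0.83, and without SNU449-Rego replicate 2 or 3. The other 8 listed genes of this role, LFNG among them, did not pass in SNU449, where 7.81% of all genes did.

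Of 9 genes for receptor cleavage, including ADAM10, ADAM17 and the subunits of gamma-secretase, 0 passed for resistance in SNU449 with limma, against 7.81% of all genes. In the same fit, 3 of the 9 had an unadjusted p under 0.05. In SNU449-Axl-, FURIN, the protease that cuts Notch on its way to the surface, fell from 79, 121 and 114 to 63, 52 and 50 (difference -0.90, SE 0.205, adjusted p = 0.016). Among genes for receptor turnover, NUMBL, a relative of the Notch antagonist NUMB, rose in SNU449-Axl- from 184, 181 and 190 to 297, 366 and 363 (difference 0.88, SE 0.212, adjusted p = 0.023). FBXW7, which marks the intracellular part of Notch for degradation, was at 281, 244 and 207 in SNU449 control and at 93, 98 and 113 in SNU449-Axl- control. This difference of -1.25 (SE 0.192, adjusted p = 0.00053) held in all 20 alternatives, whereas its rise of 0.70 with resistance in SNU449-Axl- (adjusted p = 0.046) held in 9. The calls of FURIN and NUMBL held in 15 of 20.

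Co-repressors of the Groucho family, which silence Notch targets together with HES proteins, moved in different directions. TLE1 fell from 275, 268 and 288 in SNU449 control to 110, 121 and 145 in SNU449-Rego (difference -1.15, SE 0.194, adjusted p = 0.00092). In SNU449-Axl- it was at 175, 136 and 129 in control and at 223, 268 and 219 in resistant cells, a rise of 0.69 (SE 0.194, adjusted p = 0.049) that held in 8 of 20 alternatives. TLE4 rose by 1.12 and TLE2 by 0.80 in SNU449-Rego, while TLE3 fell by 0.77 on the log2 scale there and by 0.79 in SNU449-Axl-. These calls held in 19, 16, 10 and 12 of 20 alternatives in that order. Of the 16 co-repressors listed, 5 passed in SNU449, 2 upwards and 3 downwards, against 7.81% of all genes. Of 8 co-activators, which include the Mastermind-like genes, 0 passed with limma in any of the 4 comparisons. Between 4.35% and 7.81% of all genes passed in these, so that nothing is read from the 0. For resistance in SNU449, 1 co-activator had an unadjusted p under 0.05.

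Of the 8 other targets that were listed, only CCND1, the gene for cyclin D1, passed in SNU449, against 7.81% of all genes. CCND1 was at 209, 479 and 173 in SNU449 control and at 632, 546 and 664 in SNU449-Rego (difference 1.24, SE 0.357, adjusted p = 0.039), and it was also higher in SNU449-Axl- control, at 652, 729 and 544 (difference 1.30, SE 0.357, adjusted p = 0.033). The former call was lost in 7 of 20 alternatives, each leaving out 1 library, among them SNU449 control replicate 3 (0.85, adjusted p = 0.21). The latter was lost without SNU449 control replicate 1 or 3 or any 1 of the SNU449-Axl- control libraries, with differences between 0.91 and 1.45. NRARP, a feedback inhibitor that is widely used as a readout of Notch, differed by 0.13 (SE 0.189, adjusted p = 0.76) in SNU449 and by -0.19 (SE 0.189, adjusted p = 0.64) in SNU449-Axl-. HES4, HES6, HES7, SOX9, MYC and CDKN1A did not pass in any of the 4 comparisons.

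**Figure D4:**
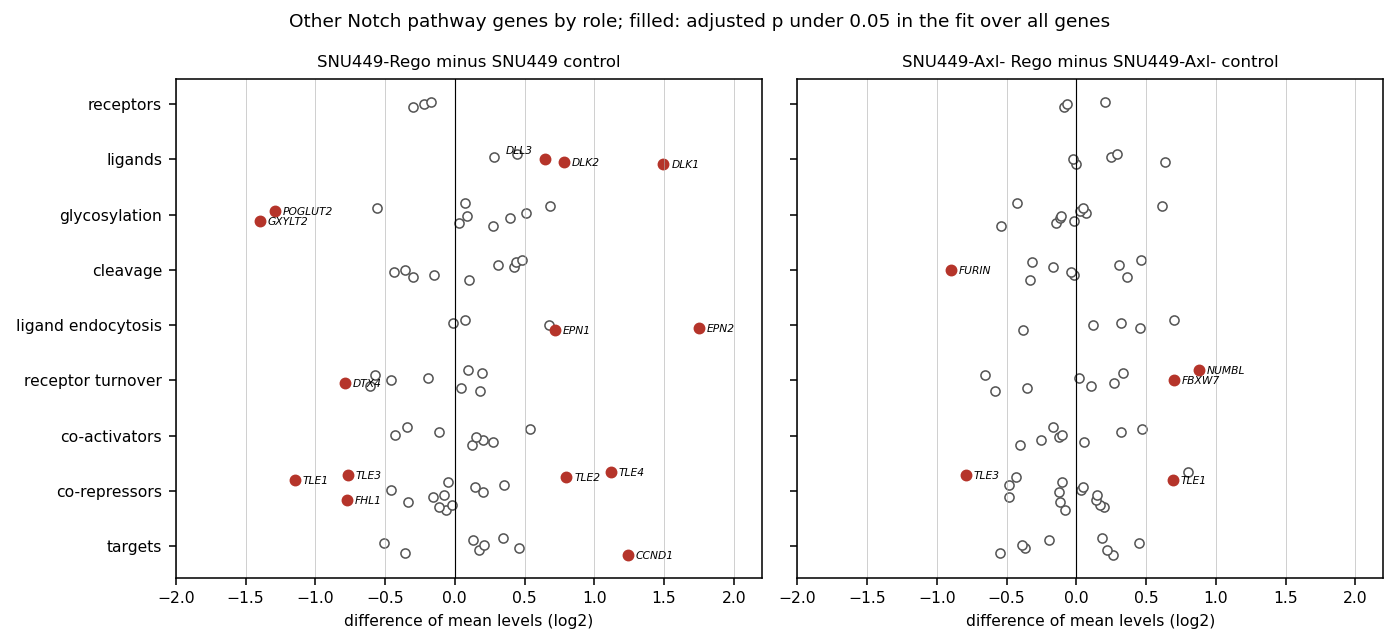
Difference of mean levels (log2) between resistant and control cells for the 73 other genes listed by role, in SNU449 and in SNU449-Axl-. Genes past an adjusted p of 0.05 are filled and named, and JAGN1, not a Jagged gene, is plotted among the ligands. In SNU449, 14 genes are filled, from GXYLT2 at -1.40 to EPN2 at 1.75, and in SNU449-Axl- 5 are, from FURIN at -0.90 to NUMBL at 0.88.

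The interaction passed for 8 of the 73 genes, 4 in each direction, where 5.87% of all genes passed. It was positive for DLK1, EPN2, TLE2 and EPN1 and negative for TLE1 (-1.84, SE 0.274, adjusted p = 0.00057), GXYLT2 (-1.38, SE 0.279, adjusted p = 0.0059), FBXW7 and DTX4. TLE1 and GXYLT2 kept their calls in all 19 alternatives. The other 6 calls were lost in part of them, with EPN1 kept in 16 of 19, FBXW7 in 15, EPN2 and TLE2 in 13, DTX4 in 12 of 18 and DLK1 in 8 of 19. All 6 were lost without SNU449-Axl- control replicate 2.

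Markers of cell types were read beside the Notch genes. Of 10 hepatocyte markers, ALB, APOB, TTR, SERPINA1, TF, HNF4A and CYP3A4 were not listed, and the summed values of the other 3 were 67 to 94 in SNU449 control, 71 to 91 in SNU449-Rego, 86 to 119 in SNU449-Axl- control and 250 to 605 in SNU449-Axl- Rego, mostly FGB. All 5 mesenchymal markers were listed, with sums between 16059 and 29382 in every library, among which FN1 differed by -2.24 with resistance in SNU449 and by 2.47 in SNU449-Axl-. Of 6 biliary markers, 3 were listed, with sums of 1072 to 1775, 1230 to 1863, 921 to 1515 and 3762 to 5528 in the same order of groups. KRT7, a keratin of bile ducts, was 4.47 higher in SNU449-Rego (adjusted p = 2.5e-06) and 3.71 higher in SNU449-Axl- control (adjusted p = 3.1e-05), both against SNU449 control. SPP1, which encodes osteopontin, went the other way in these comparisons, by -0.90 (adjusted p = 0.0496) and -1.08 (adjusted p = 0.019), and it differed by 2.82 with resistance in SNU449-Axl- (adjusted p = 9.3e-06). SOX9 did not pass in any of the 4 comparisons. Neuronal markers were 2 of 6, SYP and MAP2, with sums between 93 and 186, and RBFOX3, SNAP25, TUBB3 and DCX were not listed. Endothelial markers were 0 of 5, and the 2 of 4 immune markers summed to 48 to 70. What part these genes have in the Notch values was not tested.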

How the data were processed

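RNA from the 4 groups was sequenced by the authors as QuantSeq libraries from transcript ends, 3 libraries per group. The authors trimmed the reads with cutadapt 4.0, aligned them to GRCh38 with STAR 2.5.3a, counted genes of GENCODE 40 and spike-in RNAs, removed weakly expressed genes and ran DESeq2 with preparation date in the model. Of the deposited tables, 6 compare pairs of groups and 2 span all 12 libraries. Library values are scores that the authors obtained from variance-stabilized levels, corrected for preparation date, by raising 2 to that level and rounding. The mean normalized count is a signal that the authors averaged over the libraries of a table. Fold changes, p-values and group averages in these tables are the authors' own and were not used. Depth per library is unknown, so that no interval resting on it is given.

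Levels, log2(value + 1), of 15601 genes entered a two-sided linear model of limma 3.58.1 (R 4.3.3), moderated with a trend, over all 4 groups in the 12-library table that compares the backgrounds, with replicate number as a block, since the study's model held the preparation date. The dates themselves are not given in the sources used here, so that whether they coincide with replicate numbers could not be checked directly. A mean value of at least 5 was required, which removed no gene. A gene was called at an adjusted p (Benjamini-Hochberg) below 0.05, and spike-ins were left out. The fit was also run on simulated data, with an effect of replicate number added and then removed. That run takes the grouping by number as given and cannot test it, and nothing is read from it here. Mean levels of the libraries with one number differed from the overall mean by a median of 0.00126, against 0.122 for a library from its group. The effect removed from the deposited values had thus been grouped by replicate number. Same-numbered libraries of 2 groups correlated between -0.542 and 0.0269 over 8189 genes. Group means of normalized counts were solved by non-negative least squares from 7 tables. Members and gene lists were chosen with earlier results of these data known. Named were all members, the 3 largest rises and falls among other pathway genes past the threshold in each comparison (without overlap of libraries, except for the interaction), and the 5 genes most correlated with DNER and with JAG2. A marker gene and a gene correlated with JAG2 are not reported here. Other genes named here, such as NRARP, DLK2, DLL3, EPN1 and the further TLE genes, were chosen after their values were seen. Promoters are from RefSeq.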

Additional observations from a re-analysis of the deposited data

Results flagged for a closer look

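By the interaction term of the limma fit, the change with Rego resistance differed between SNU449 and SNU449-Axl- for 2 of 9 members. It also differed for 8 of 73 other pathway genes, and 5.87% of all genes passed in this fit. Among the members, which were chosen with this pattern known, the change in SNU449 minus that in SNU449-Axl- was 3.60 for DNER and 2.66 for HES1. Among the other pathway genes it was positive for DLK1 (1.50), EPN2 (1.29), TLE2 (1.23) and EPN1 (1.10) and negative for TLE1 (-1.84), GXYLT2 (-1.38), FBXW7 (-1.15) and DTX4 (-1.06). Of these 8, only TLE1 and GXYLT2 kept their calls in all 19 alternatives, and the other 6 were lost without SNU449-Axl- control replicate 2. DLK1, kept in 8 of 19, had the same 3 library values in both SNU449-Axl- groups, so that its interaction equals its difference in SNU449 and, with control cells near the lowest values of the table, gives no size.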

How the results depend on the processing

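Without the replicate block, 2175, 1552, 2182, 1503 and 1826 genes passed for resistance in SNU449, resistance in SNU449-Axl-, Axl loss in control cells, Axl loss in resistant cells and the interaction, in place of 1219, 678, 1163, 682 and 916, with 2 members and 10 pathway genes for resistance in SNU449-Axl- and 14 pathway genes for Axl loss in control cells. The members gained by this unpaired fit were HES1 and HEY1 for resistance in SNU449-Axl-, HEY1 for resistance in SNU449 and NOTCH2 for the interaction. In the table of each pair alone, 603 genes, 2 members and 7 pathway genes passed for resistance in SNU449, where JAG2 and NOTCH2 were lost. In the other pair tables, 818 genes, 2 members (DNER and HES1) and 5 pathway genes passed for resistance in SNU449-Axl-. For Axl loss in control cells, 603 genes, 0 members and 4 pathway genes passed. For Axl loss in resistant cells, 1160 genes, 2 members (DNER and HES1) and 11 pathway genes passed. Centred on the spike-in RNAs, of which 18 of 32 were used, the median of all genes moved to 0.30 for Axl loss in control cells, 0.47 for Axl loss in resistant cells, 0.19 for resistance in SNU449-Axl- and -0.17 for the interaction. For Axl loss, 2071 genes, 2 members and 12 pathway genes then passed in control cells and 4857 genes, 5 members and 22 pathway genes in resistant cells. For the interaction, 689 genes, 2 members and 5 pathway genes passed. The share of called genes that were higher went from 58.4% to 88.7% for resistance in SNU449-Axl-, from 54.0% to 91.5% and from 55.9% to 98.9% for Axl loss in control and resistant cells, and from 50.3% to 28.3% for the interaction. The members gained in resistant cells, NOTCH2, JAG1, DLL1 and RBPJ, then differed by 0.92, 0.74, 0.67 and 0.57. The median of all genes was then at 0.47, against 0.01 in the main fit. Centred on the median gene, 715 genes, 1 member, HES1, and 3 pathway genes passed for resistance in SNU449-Axl-, with 48.0% of the called genes higher. With 1 library left out, between 740 and 1299 genes, 1 and 4 members and 5 and 14 pathway genes passed for resistance in SNU449. The ranges were 205 to 891, 0 to 2 and 0 to 6 for resistance in SNU449-Axl-, 540 to 1275, 0 to 2 and 3 to 7 for Axl loss in control cells, 219 to 826, 0 to 2 and 2 to 7 for Axl loss in resistant cells, and 523 to 922, 2 to 3 and 2 to 9 for the interaction. The cause of these moves was not tested. Of 877 recomputed differences of members, 839 moved by less than the SD within groups, and no called one changed sign. Of 790 for pathway genes, 615 kept their call and 175 lost it, with no change of sign.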
